A study of Mus musculus with 6 samples.

Results

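Peroxisomes are small organelles that break down very long and branched fatty acids, oxidise amino and hydroxy acids, remove the hydrogen peroxide these reactions release, and begin the synthesis of ether lipids. Peroxins, the products of the Pex genes, build the organelle: some insert its membrane proteins, and others bind enzymes made in the cytosol and carry them through the membrane. In the kidney, peroxisomes are most abundant in the proximal tubule, which takes much of its energy from fatty acids.

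A fixed list of 43 mouse genes of peroxisome biogenesis and peroxisomal metabolism was looked up by symbol in the transcript table of the study, and 42 of them were found among 23276 gene symbols. These were 12 peroxins, 5 membrane transporters and channels, and 25 enzymes. Pex11g, a peroxin, was not analysed here. Each gene was represented by its most abundant transcript row.

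The RNA came from whole kidneys of 6 mice at postnatal day 22, all on a B6 background. All 6 carried KspCre, a Cre transgene driven in kidney tubules by the Ksp-cadherin promoter, together with a floxed Pkd1 allele (F) and a hypomorphic Pkd1 allele (RC), so each is a model of polycystic kidney disease. The 3 Pkd1 F/RC SKO kidneys (KspCre; Pkd1 F/RC) had no other targeted gene, whereas in the 3 Pkd1 F/RC DKO kidneys the miR-17-92 cluster was also floxed and deleted by the same Cre. Cells that never expressed KspCre kept the floxed alleles. The study compared both groups to ask what loss of the cluster does to cystic kidneys, and its own statistics of that comparison were not used here. The levels below are the authors' average over all 6 libraries, so neither genotype, single kidneys nor the spread between kidneys can be read from them, and no test was made. Genes that lie close together in an order of levels therefore cannot be resolved. In bulk tissue, fewer cells of a type and less RNA per cell cannot be told apart.

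The average was checked against markers of the tissue. Slc34a1, the phosphate transporter of the proximal tubule, averaged 1030 CPM (read counts scaled to a common library total), and Umod, made by the thick ascending limb, averaged 1022 CPM. Cdh16, which encodes Ksp-cadherin, stood at 480 CPM. All 5 proximal tubule markers reached at least 81.8 CPM. Markers of later segments were also high. Slc12a1 of the thick ascending limb averaged 618 CPM and Slc12a3 of the distal tubule 169 CPM. The collecting duct markers Aqp2 and Atp6v1b1 averaged 77.7 and 82.6 CPM. Among tissues that also hold many peroxisomes, the hepatocyte markers Alb and Apoa2 averaged 13.4 and 1.34 CPM. The adrenal markers Star and Cyp11b1 averaged 0.892 and 0.0352 CPM, the latter near the lowest of all genes (0.0263 CPM). Fabp4, an adipocyte marker also found in capillaries, averaged 120 CPM, but the other adipocyte marker, Adipoq, averaged 5.82 CPM. The fibroblast markers Col1a1 and Pdgfrb averaged 128 and 44.8 CPM. Markers of podocytes, endothelium and macrophages lay between 5.19 (Cd68) and 52.7 CPM (Pecam1), with the macrophage marker Adgre1 not analysed here. The part of these other cells in the levels below was not tested. The targeted genes themselves, Pkd1 at 31.8 CPM and the miR-17-92 host transcript Mir17hg at 4.21 CPM, were averaged over both genotypes and so check no label.

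All 42 genes averaged at least 1 CPM, 38 reached 10 CPM and 5 reached 100 CPM. Their median was 25.02 CPM, against 2.36 CPM over all 23276 genes and 12.6 CPM over the 13001 genes with at least 1 CPM. Longer mRNAs give more reads, so genes are compared with each other as CPM per kilobase of the RefSeq mRNA unless another scale is named, and an order in plain CPM also reflects mRNA length. Per kilobase of mRNA, the median of the 42 genes was 9.60, that of genes with at least 1 CPM was 4.01, and 34 of the 42 lay above the latter. The 8 genes below it were the peroxins Pex6, Pex7, Pex11a and Pex26, the transporter Abcd2, and the enzymes Acot4, Acot8 and Ddo.

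The enzymes stood higher in median than the peroxins, a class that also holds genes of membrane protein insertion and division. The median was 16.2 CPM per kilobase over the 25 enzymes, 8.63 over the 5 transporters and 4.51 over the 12 peroxins. The enzyme median was thus 3.60 times the peroxin median per kilobase and 3.09 times in CPM without length. Per kilobase of coding sequence the ratio was smaller, 2.17. The classes overlapped: 9 enzymes lay above the highest peroxin, 15 within the range of the peroxins and 1 below the lowest. The enzymes spanned 6.21 log2 units per kilobase and the peroxins 3.50.

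**Figure D1:**
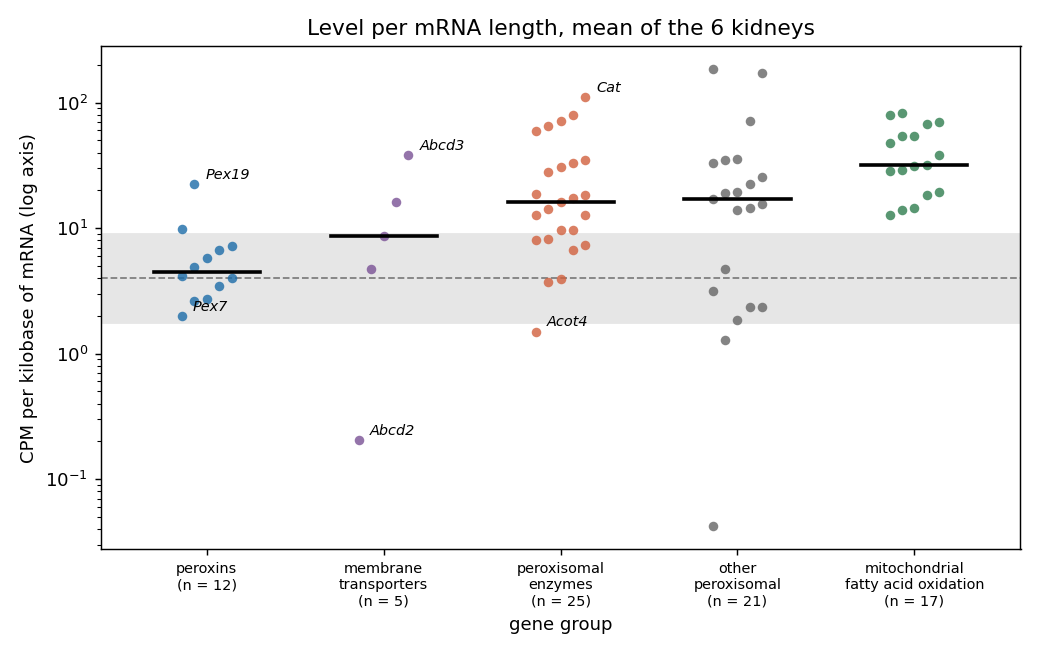
Each point is a gene at its level in CPM per kilobase of RefSeq mRNA, averaged by the authors over the 6 kidneys (log axis), in the 3 classes of the 42 genes and in 2 lists for comparison; black bars are group medians, the dashed line is the median of genes with at least 1 CPM and the grey band their interquartile range (1.74 to 8.96). The enzymes reach from Acot4 at 1.49 to Cat at 110, whereas the peroxins reach from Pex7 at 1.98 to Pex19 at 22.4.

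Among the peroxins, the highest was Pex19, the soluble chaperone that binds newly made peroxisomal membrane proteins. Pex19 (chr1:172126755-172136493 in GRCm38, plus strand, 8 exons) averaged 42.9 CPM, or 22.4 CPM per kilobase. Its partners in membrane protein insertion stood lower: Pex3, its docking site on the membrane, was at 7.25 CPM per kilobase and Pex16, which helps to recruit Pex3, at 4.86. The level per kilobase of Pex19 was 3.09 times that of Pex3 and 4.61 times that of Pex16. By highest rows, Pex16 was the lowest peroxin in CPM, at 6.76, but not per kilobase. By RefSeq rows, on which the values per kilobase rest, Pex11a was lower in CPM, at 5.88.

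The soluble import receptors differed from each other in level per length. Pex5, which recognises the C-terminal targeting signal carried by most matrix enzymes, averaged 18.4 CPM and 5.83 CPM per kilobase. Pex7 is the receptor of the N-terminal signal carried by few enzymes, among them Phyh, Agps and the thiolases Acaa1a and Acaa1b. Pex7 averaged 16.1 CPM and 1.98 CPM per kilobase, the lowest of the peroxins. The ratio of Pex5 to Pex7 per kilobase was 2.94. It rests on the long RefSeq mRNA of Pex7 (8099 bases, of which 957 are coding). Per kilobase of coding sequence, Pex7 was at 16.8 and Pex5 at 9.56, so the order of the receptors turned, and a low level of Pex7 holds only for the mRNA length.

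The other peroxins lay between 2.62 and 9.79 CPM per kilobase. In the docking complex, Pex14 was at 6.69 and Pex13 at 4.02 CPM per kilobase, whereas per kilobase of coding sequence Pex13 (13.7) was above Pex14 (11.9). Of the RING-finger ubiquitin ligases that mark the receptors for export, Pex2 was at 9.79 and Pex10 at 4.19 CPM per kilobase. Pex6, an ATPase that pulls receptors out of the membrane, and Pex26, which anchors it there, had 3.43 and 2.72 CPM per kilobase. Their order also turned per kilobase of coding sequence, where Pex26 was at 12.1 and Pex6 at 3.72, the lowest peroxin on that scale. Pex11a, which elongates the membrane before division, was at 2.62 CPM per kilobase by its RefSeq row.

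The membrane transporters held both the lowest of the 42 genes and a high one. Abcd3, also known as PMP70, the ABC transporter that takes up branched and dicarboxylic acyl-CoA, averaged 134 CPM and 38.3 CPM per kilobase, the sixth of the 42 genes per kilobase (chr3:121758774-121815302 in GRCm38, minus strand, 23 exons). Abcd2, a transporter of very long-chain acyl-CoA, averaged 1.13 CPM and 0.204 CPM per kilobase, so Abcd3 was 188 times as high per kilobase. Abcd4, a family member known for moving cobalamin out of lysosomes, was at 4.73 CPM per kilobase. The channel protein Pxmp2 stood at 16.3 CPM per kilobase and the membrane protein Pxmp4 at 8.63.

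With each gene at its highest row, catalase was the most abundant of the 42 in CPM, per kilobase of mRNA and per kilobase of coding sequence. With all rows of a gene summed, Far1 (721 CPM), Scp2 (577), Hao2 (541) and Abcd3 (393) stood above catalase, which has 1 row (288). Such sums may count a read more than once, and they grow with the number of rows. Far1 has 8 rows, Hao2 has 5, and Scp2 and Abcd3 have 3 each. The summed values are therefore not comparable levels of these genes, and the rank of catalase is given only for single rows. Cat, the enzyme that breaks hydrogen peroxide down to water and oxygen, averaged 288 CPM and 110 CPM per kilobase (chr2:103453849-103485160 in GRCm38, minus strand, 13 exons). This put it at percentile 98.4 per kilobase among genes with at least 1 CPM. The next were Phyh (80.4), Scp2 (71.7), Ech1 (65.1) and Hao2 (59.2 CPM per kilobase), and with Cat these 5 made up 56.7% of the summed CPM per kilobase of the 25 enzymes. Of the 42 genes, 11 were at or above the 90th percentile per kilobase of genes with at least 1 CPM.

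The oxidases that release hydrogen peroxide were set beside catalase. Hao2, which oxidises hydroxy acids, stood at 59.2 CPM per kilobase, Dao, which oxidises neutral D-amino acids, at 34.6, and Pipox, which acts on pipecolate and sarcosine, at 27.9. Ddo, the D-aspartate oxidase, was at 3.71 CPM per kilobase, so Dao was 9.33 times as high. The acyl-CoA oxidases Acox2, which acts on bile acid intermediates, and Acox3, which acts on branched chains, were at 12.7 and 8.10 CPM per kilobase. Summed over these 6 oxidases the level was 146 CPM per kilobase, and Cat alone came to 0.754 of that sum.

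The core of peroxisomal beta-oxidation spanned a wide range. Of the bifunctional proteins that hydrate and dehydrogenate acyl chains, Hsd17b4 (D-specific) stood at 30.8 and Ehhadh (L-specific) at 18.9 CPM per kilobase, a ratio of 1.63. At the thiolase step, Scp2, whose gene encodes a thiolase and a sterol carrier protein, was at 71.7 CPM per kilobase, Acaa1b at 18.2 and Acaa1a at 7.38. The ratio of Acaa1b to Acaa1a was 2.47. These genes are near-identical copies, and 35.1% of the 51-base stretches of the Acaa1b mRNA and 33.6% of those of Acaa1a also occur in the other, so their separate levels are uncertain. Reads that fit both copies equally well receive a low mapping quality, and such reads were discarded by the authors. In Scp2, 41.2% of the stretches also occur in Scp2-ps2, a pseudogene.

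Auxiliary enzymes of unsaturated and branched chains held 2 of the 5 highest enzymes, Ech1 and Phyh. Ech1, a dienoyl-CoA isomerase also found in mitochondria, was at 65.1 CPM per kilobase, Eci2, an enoyl-CoA isomerase, at 14.1, and Decr2, a dienoyl-CoA reductase, at 8.23. In the alpha-oxidation of phytanic acid, Phyh, which hydroxylates phytanoyl-CoA, stood at 80.4 CPM per kilobase, and Hacl1, which cleaves the product, at 9.59. The ratio of Phyh to Hacl1 was 8.38, but 55.5% of the 51-base stretches of Hacl1 also occur in an overlapping gene model on the same strand, Gm49387. Amacr, the racemase that makes branched chains fit for beta-oxidation, was at 6.71 CPM per kilobase.

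Enzymes that release the products ranged widely. Nudt19, a coenzyme A diphosphatase, averaged 75.6 CPM and 32.8 CPM per kilobase. Crot, which couples shortened chains to carnitine for export, was at 16.2 CPM per kilobase. The thioesterases were far below: Acot8 was at 3.94 CPM per kilobase, with 4.54 CPM the lowest enzyme in CPM, and Acot4 at 1.49. The RefSeq mRNA of Acot4 is 6203 bases long with 1266 coding bases, and per kilobase of coding sequence it reached 7.31, above the 4.72 of Acot8.

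The spread of the ether lipid enzymes depended on the length used. Far1, which makes the fatty alcohol, was at 17.5 CPM per kilobase, Agps, which exchanges it into the lipid, at 12.7, and Gnpat, which makes the acylated precursor, at 9.61. Without length and by highest rows, Far1 (95.4 CPM) and Agps (93.3 CPM) were the sixth and seventh of the 42 genes. Gnpat was at 28.7 CPM. The value of Far1 is that of an assembled row. Its RefSeq row, used per kilobase, was at 86.8 CPM and so below Agps. Their RefSeq mRNAs differ in length, with 7359 bases in Agps against 2984 in Gnpat. Per kilobase of coding sequence the levels were farther apart, at 56.1 for Far1, 46.3 for Agps and 14.1 for Gnpat.

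**Figure D2:**
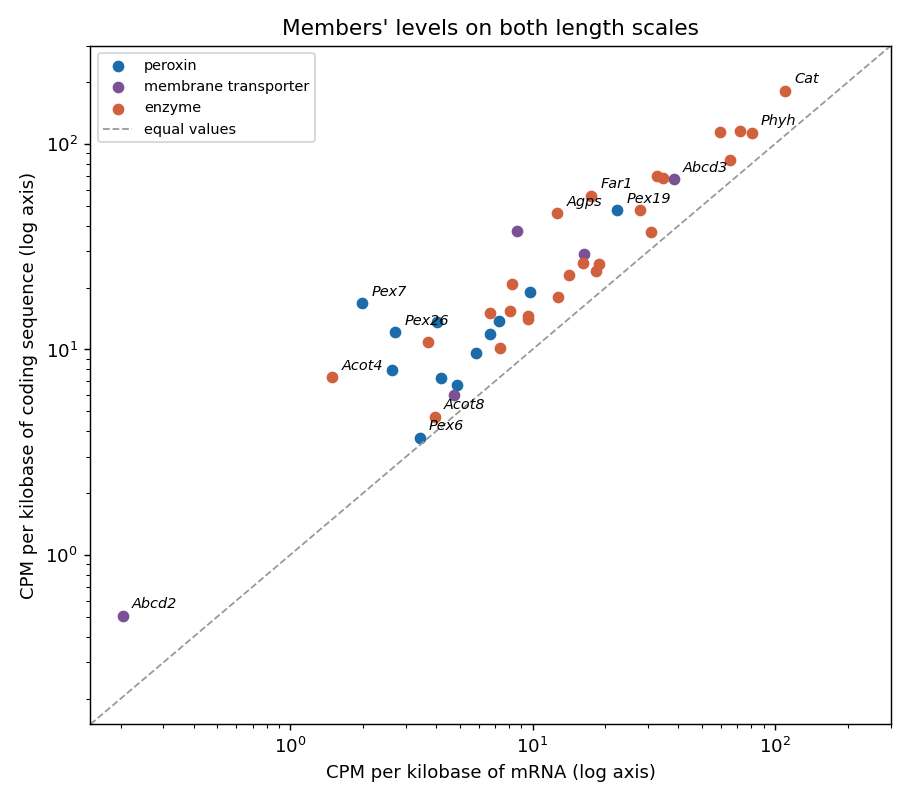
Each point is a gene, at its level in CPM per kilobase of RefSeq mRNA (horizontal log axis) and of coding sequence alone (vertical log axis), averaged over the 6 kidneys; the dashed line marks equal values. Genes far above the line have long untranslated regions: Pex7 moves from 1.98 to 16.8 and Acot4 from 1.49 to 7.31, whereas Cat (110 and 182) and Abcd2 (0.204 and 0.507) stay at the ends.

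Most genes had several transcript rows, and for some the choice of row set the level. The 42 genes had 110 rows, 55 of RefSeq mRNAs, 2 of RefSeq non-coding RNAs and 53 assembled from reads. Of the 30 genes with several rows, 11 had rows within 0.1 log2 CPM of each other. Of the 8470 genes in the table with several rows and at least 1 CPM, 44.2% were within the same tolerance. In 6 genes the rows ranged over more than 1 log2 unit: Acaa1b (1.78), Ddo (1.75), Pex11a (1.45), Amacr (1.36), Acot8 (1.24) and Pex16 (1.03). Pex11a was the gene whose RefSeq row lay farthest below an assembled row, at 2.56 against 4.002 log2 CPM. Some rows of a gene had the same value: both rows of Phyh were at 115.6 CPM, and both assembled rows of Agps at 92.66 CPM. The 9 rows of Pex2 lay within 0.036 log2 units. Rows that count the same reads would look like this. Whether reads shared by several rows of a gene entered each of them is not stated in the sources used here and was not tested.

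**Figure D3:**
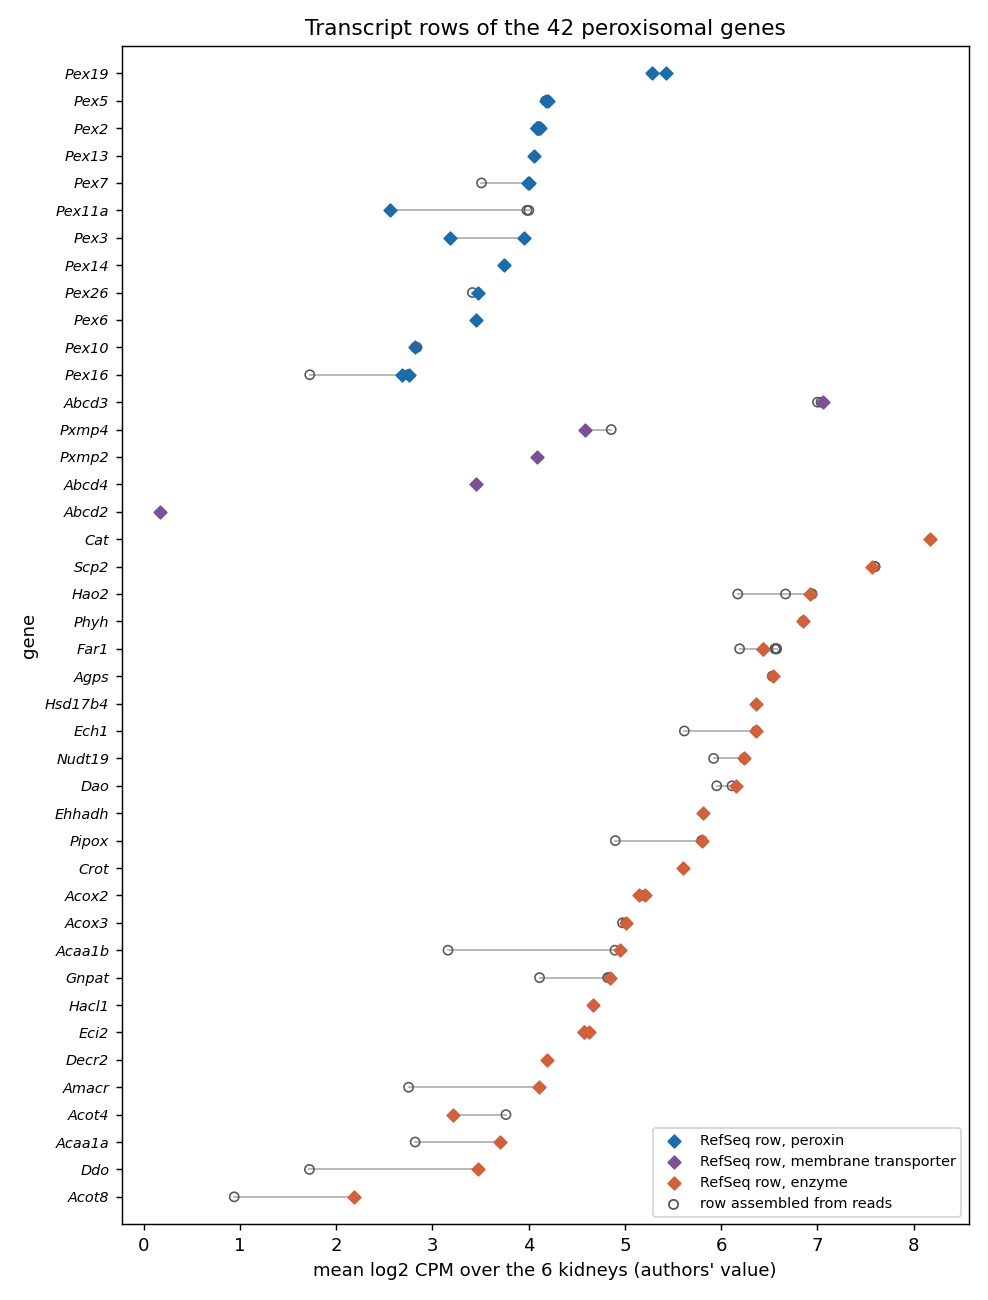
Each symbol is a transcript row of a gene at its log2 CPM averaged by the authors over the 6 kidneys, with filled diamonds for RefSeq rows (coloured by class) and open circles for rows assembled from reads; a line joins the rows of a gene. The rows of 11 of the 30 genes with several lie within 0.1 log2 units, whereas in Acaa1b, Ddo and Pex11a they range over 1.78, 1.75 and 1.45 log2 units.

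Other gene lists place these levels. The 17 mitochondrial fatty acid oxidation genes had a median of 31.7 CPM per kilobase, from Cpt2 (12.8) to Etfb (83.1), against 18.2 for the 7 peroxisomal beta-oxidation genes and 16.2 for all 25 enzymes. A further 21 genes listed as peroxisomal had a median of 16.9 CPM per kilobase. They ran from Hao1 (0.0420), the hydroxy acid oxidase of liver, to Prdx5 (186), a peroxidase also found in mitochondria. Others of the 21 also act outside peroxisomes, among them Fis1, Mff and Dnm1l, so this median is not of peroxisomes alone. Hao2 and Hao1, which encode related oxidases, thus lay at 59.2 and 0.0420 CPM per kilobase. In plain CPM, Hao1 averaged 0.086, near the lowest of all genes (0.0263 CPM). Its exact value therefore carries little meaning beyond being very low.

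The cluster removed in the DKO kidneys encodes 6 microRNAs on mouse chromosome 14 (RefSeq, GRCm38.p6), whose mature sequences are given because their seeds define which mRNAs they can pair with. A microRNA pairs with its targets mainly through its seed, bases 2 to 8, which is in capitals. The microRNAs miR-17-5p and miR-20a-5p share a seed, and miR-19a-3p and miR-19b-3p share another.
mmu-miR-17-5p: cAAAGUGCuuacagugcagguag
mmu-miR-20a-5p: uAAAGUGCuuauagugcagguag
mmu-miR-18a-5p: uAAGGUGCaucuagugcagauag
mmu-miR-19a-3p: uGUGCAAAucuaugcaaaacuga
mmu-miR-19b-3p: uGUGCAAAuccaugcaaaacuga
mmu-miR-92a-3p: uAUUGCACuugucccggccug

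The 3′-untranslated regions (3′-UTRs) of the RefSeq mRNAs were searched on the mRNA strand for the letters that pair with each seed. A match is a description of the sequence and does not show a target. The 7 bases that pair with miR-17-5p and miR-20a-5p, GCACTTT, occurred in 9 of the 42 genes (21.4%), against 13.7% of 12401 genes with at least 1 CPM and 11.0% of all 18923 genes with a 3′-UTR. An A opposite base 1 of the microRNA, a feature of stronger sites, followed the match in 7 of the 42 genes (16.7%), against 4.25% and 3.29%. For the 6-base core CACTTT the share in the 42 genes (33.3%) was near that of all genes (33.5%) and below that of genes with at least 1 CPM (38.9%). The median 3′-UTR was 801.5 bases in the 42 genes.

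The 7 genes with the longer match were Pex7, Abcd2, Acaa1a, Acaa1b, Crot, Acot4 and Far1. Their sites are shown with the pairing bases in capitals, 5′ to 3′ on the mRNA strand, so that the letters around each match can be compared.
Pex7: atacttttaGCACTTTagaggctgc
Abcd2: atttaggcaGCACTTTagccgacgc
Acaa1a: tgtgtcacaGCACTTTactttagaa
Acaa1b: tgtgtcacaGCACTTTaatttagaa
Crot: atttctcaaGCACTTTaatactttc
Acot4: atctcagcaGCACTTTagtggccag
Far1: gttcacacaGCACTTTaggggaagc

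These matches lie in GRCm38 at chr10:19858258-19858264 (Pex7, minus strand), chr15:91147087-91147093 (Abcd2, minus strand), chr9:119350142-119350148 (Acaa1a, plus strand), chr9:119148223-119148229 (Acaa1b, minus strand), chr5:8966493-8966499 (Crot, minus strand), chr12:84045906-84045912 (Acot4, plus strand) and chr7:113571032-113571038 (Far1, plus strand). The thiolase copies Acaa1a and Acaa1b hold the match at the same place, bases 109 to 115 of the 3′-UTR, and so are not independent of each other. The levels of the 7 genes ran from 0.204 (Abcd2) to 18.2 CPM per kilobase (Acaa1b), and they included the lowest peroxin, transporter and enzyme per kilobase of mRNA. Per kilobase of coding sequence, Abcd2 was still the lowest transporter. The lowest peroxin on that scale was Pex6 (3.72) and the lowest enzyme Acot8 (4.72), neither of which is among the 7. The long 3′-UTRs of Pex7 (7026 bases), Acot4 (4805), Far1 (3254) and Abcd2 (3115) add to the room for a match. They also add to the length by which the level is divided.

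The remaining seeds had matches of 7 bases in fewer genes. The miR-18a-5p match GCACCTT occurred in 4 genes (9.52%, against 8.61% of genes with at least 1 CPM), which were Pex3, Pex7, Pex11a and Pex26. All 4 are peroxins, whose 3′-UTRs had a median of 899.5 bases against 788 in the enzymes. With so few genes this is not read as a trait of the class. The match TTTGCAC of miR-19a-3p and miR-19b-3p occurred in 6 genes (14.3% against 12.1%), which were Pex7, Pex11a, Pex19, Acox3, Acot8 and Far1. The miR-92a-3p match GTGCAAT occurred in Acot4, Dao and Far1 (7.14% against 7.06%). With the added A, the miR-18a-5p match remained in 2 genes (4.76% against 1.51%), the match of miR-19a-3p and miR-19b-3p in 1 gene (2.38% against 5.42%), and the miR-92a-3p match in 0 (against 2.64%). Pex7 held matches of 7 bases to 3 of the 4 seeds and so did Far1. Cat, Scp2, Phyh, Ech1, Hao2 and Abcd3, the 6 highest genes per kilobase of mRNA, held no match of 7 bases to any of the 4. The share of all genes without any match was not computed, so this count has no background beside it. It also depends on the scale, since in plain CPM and by highest rows the sixth gene was Far1 (95.4 CPM). By RefSeq rows Far1 (86.8 CPM) stood below Agps (93.3 CPM).

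**Figure D4:**
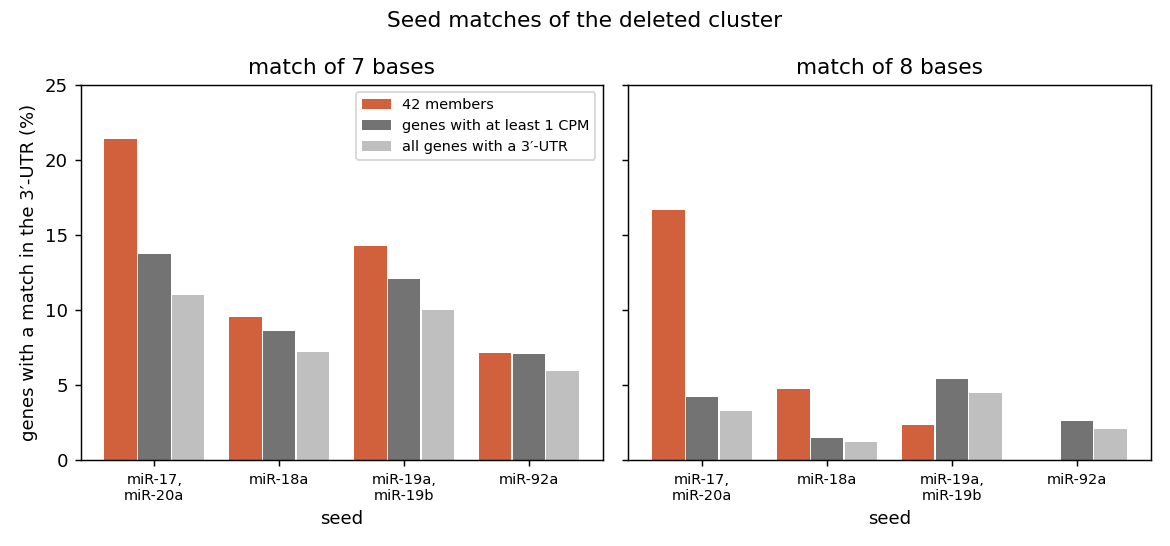
Bars give the percentage of genes whose 3′-UTR holds a match to each seed of the deleted cluster, for matches of 7 bases (left) and 8 bases (right), in the 42 genes, in 12401 genes with at least 1 CPM and in all 18923 genes with a 3′-UTR. For the miR-17 and miR-20a seed the 42 genes stand at 21.4% and 16.7%, against 13.7% and 4.25% of genes with at least 1 CPM, and each bar of the 42 genes rests on at most 9 genes.

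Many peroxisomal genes are known targets of PPAR-alpha, a receptor that binds copies of AGGTCA spaced by a base. RefSeq promoter windows of 300 bases (GRCm38.p6), most of each lying before the transcription start, could be matched for 35 of the 42 genes. On either strand, AGGTCA occurred in 6 of these (17.1%), against 18.1% of 27025 genes. The spaced repeat with at most 1 mismatch occurred in 0 of the 35, against 0.644% of the 27025 genes. At so low a share, 35 promoters cannot show a lack of it. With 2 mismatches allowed it occurred in 3 (8.57% against 4.40%). This says only that these letters are or are not in this window.

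The 42 genes lay on 18 chromosomes. By the 51-base read length of the study, 30 of the 42 mRNAs had no stretch in common with another gene, and 6 had more than 5% in common. Besides Hacl1, Scp2 and the thiolases these were Gnpat (7.84%) and Eci2 (7.02%). Exons of another gene overlapped on the opposite strand in 17 genes and on the same strand in 4.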

How the data were processed

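Total RNA of 6 mouse kidneys (3 Pkd1 F/RC SKO, 3 Pkd1 F/RC DKO) was made into stranded, ribosome-depleted libraries and read as 51-base single ends. The authors aligned reads with TopHat2 2.0.12 to mm10 and discarded mapping qualities under 10. Their processing notes also name Cufflinks, featureCounts (Subread 1.4.6) and edgeR 3.2.4. The deposited log2 CPM is the authors' average per transcript over the 6 libraries. The table also holds the authors' own comparison (log2 fold change, likelihood ratio, p-value and adjusted p-value), which was not used. The planned count test was therefore not run, and the depth and replicate error of each library are unknown here.

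With Python 3.11.15, pandas 2.3.3 and numpy 2.4.6, each gene took its highest row (9317 of 54721 rows named no gene). CPM was 2 to the power of log2 CPM. CPM per kilobase used the highest RefSeq mRNA row and the length of the matching GENCODE vM21 (GRCm38) transcript, which may differ from the gene model the authors counted on. Such a length was had for 20167 genes. The functions were tested on simulated data. Genes named in full were the highest and lowest of each class, Cat, Abcd3, the Acaa1 copies and the import receptors, and every gene of the list could be named. The genes and lists were chosen with earlier results of these data known. Of the further peroxisomal genes, 4 are not reported here and were left out of that list's values.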

Additional observations from a re-analysis of the deposited data

How the results depend on the processing

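The difference between the enzyme and peroxin medians, 1.63 log2 CPM, stayed between 1.12 (per kilobase of coding sequence) and 2.01 (all rows of a gene summed) over the alternatives computed, and a value was taken as unmoved within 1.5 times, since replicate spread is unknown. Against the ratio per kilobase of mRNA (3.60), that per kilobase of coding sequence (2.17) was lower by more than 1.5 times. The medians themselves moved with the scale. The peroxin median was 3.98 log2 CPM, but 4.58 with rows summed and 2.17 per kilobase of mRNA. The enzyme median was 5.60, but 6.58 with rows summed, 4.02 per kilobase of mRNA and 4.71 per kilobase of coding sequence. Summing rows may count a read more than once. The number of genes with a miR-17 seed match was 9 with 7 bases, 7 with 8 and 14 with 6. The number above the median of all genes was 41, and 34 against genes with at least 1 CPM. Coding length, and the number above the median per kilobase, were chosen after seeing the data.

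No paired analysis was possible because per-kidney values were not analysed here. For the same reason leaving out kidneys, another normalization, another count tool and no filter on low counts were not run. Peroxisomal targeting signals were not examined, having needed protein sequences.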
